A study of Mus musculus with 9 samples.

Results

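The data are RNA-seq counts from 9 mouse mammary tumours, and the genes described are 57 interferon-stimulated effector genes: genes switched on by interferon whose products act against viruses, modify proteins, or shape antigen processing. The 57 were taken from a written list of interferon-induced effectors, GTPases and immunoproteasome subunits that leaves out sensors, STAT and IRF factors and MHC genes. All 57 were among the 14108 genes in the count tables and all were among the 14086 genes tested, and the lowest count of any of them in any tumour was 14. They fall into 9 role groups, of which the antiviral effectors are the largest with 18 genes.

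HR1 is a mammary cancer line that was derived from a tumour of a mouse whose CAG-driven transgene encodes PIK3CA H1047R. LM1 and LM9 are lines grown out from lung metastases that arose in mice bearing HR1 cells mutagenized with the piggyBac transposon. Each model is thus 1 cell line, and all 3 share the PIK3CA transgene. For each model 3 tumours were grown from 250000 cells placed in Matrigel into the mammary fat pads of female NOD/SCID mice 4 to 8 weeks old, a strain whose scid mutation leaves it without mature T and B cells, and GFP-positive cells were sorted from the tumours. The labels number the tumours 1 to 3 in each model, and since they do not say that each came from a separate animal, p-values measure the spread between these samples. The study used the models to compare tumours with high Nfib expression (LM1 and LM9) with tumours of low Nfib expression (HR1).

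Type I interferons bind a receptor on the cell surface that signals through JAK kinases to a transcription factor complex that binds the interferon-stimulated response element in target promoters. Interferon gamma uses its own receptor, and the factors it activates bind the gamma-activated site. The products of the target genes degrade or sense viral RNA, block virus entry and release, attach the ubiquitin-like protein ISG15 to other proteins, and exchange proteasome subunits for versions that favour peptides for MHC class I.

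A 300-base window around the transcription start (250 bases before to 50 after, RefSeq, GRCm38.p6) was at hand for 47 of the 57 genes. The core of the interferon-stimulated response element, searched as GAAANNGAAA on both strands, was in the window of 20 of these 47 genes (42.6%), against 423 of 11112 listed genes with a window (3.81%). The core of the gamma-activated site, TTCNNNGAA, was in 8 of the 47 (17.0%), against 921 of the 11112 (8.29%). The 2 motifs were counted separately and their matches may overlap. A match is a run of letters and was not tested as a site. The response element cores of genes described in detail below are shown so that their letters can be set beside the values. Each is written in the direction of its gene with the matching bases in capitals. Slfn5 was added after its values were seen, since it holds the core and its level did not rise.
Isg15: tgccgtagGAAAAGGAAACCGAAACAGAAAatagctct
Bst2: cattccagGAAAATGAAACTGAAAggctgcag
Rsad2: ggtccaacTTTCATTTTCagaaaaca
Ddx60: gatgaatgGAAACCGAAActtaaagc
Gbp3: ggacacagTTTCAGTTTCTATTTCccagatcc
Gbp7: gtgtgcagTTTCAGTTTCagttctcc
Slfn5: ttcaaagtGAAAAAGAAAaaaaaaaa

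These windows lie at chr4:156200867-156200904 on the minus strand (Isg15), chr8:71537579-71537610 on the minus strand (Bst2), chr12:26456555-26456580 on the minus strand (Rsad2), chr8:61928026-61928051 on the plus strand (Ddx60), chr3:142559991-142560022 on the plus strand (Gbp3), chr3:142530275-142530300 on the plus strand (Gbp7) and chr11:82951939-82951964 on the plus strand (Slfn5). Isg15 held 3 overlapping matches and Bst2 and Gbp3 held 2 overlapping matches each. Ddx60 held 2 separate matches, of which the one farther from the start is shown, and Rsad2, Gbp7 and Slfn5 held 1. Among the 47 genes, the median log2 fold change of LM over HR1 tumours was 2.42 for the 20 with a core and 1.76 for the 27 without. Of the genes with a core 18 of 20 were called higher, and of those without 25 of 27, where 19.9% of all tested genes were.

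Complete windows follow for the genes with the largest change that have an entry. Phf11d had the largest change of such genes between LM and HR1 tumours, and its window (chr14:59365441-59365740, minus strand) holds neither core. Gbp7 had the largest change of such genes between LM9 and LM1 tumours, and its window (chr3:142530086-142530385, plus strand) holds 1 response element core, in capitals, and 2 matches to the gamma-activated core.
Phf11d: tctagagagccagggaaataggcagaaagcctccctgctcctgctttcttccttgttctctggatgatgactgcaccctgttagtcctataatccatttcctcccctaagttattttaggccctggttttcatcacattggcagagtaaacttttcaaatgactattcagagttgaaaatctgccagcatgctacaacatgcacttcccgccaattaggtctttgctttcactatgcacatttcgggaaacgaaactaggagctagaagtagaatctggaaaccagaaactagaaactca
Gbp7: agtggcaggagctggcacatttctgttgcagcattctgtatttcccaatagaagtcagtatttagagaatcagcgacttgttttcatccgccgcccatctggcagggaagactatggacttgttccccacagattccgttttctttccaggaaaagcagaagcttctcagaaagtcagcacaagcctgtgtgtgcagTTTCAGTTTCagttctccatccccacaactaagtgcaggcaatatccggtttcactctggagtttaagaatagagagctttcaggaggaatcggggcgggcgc

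Total counts ranged from 32393958 to 46681945 per tumour. The tumour labelled HR1 replicate 1 stood apart from the other HR1 tumours. It held 1343 CPM (the gene's counts scaled to a common library total, with TMM factors) of Nfib, against 23.9 and 18.3 in the other HR1 tumours and 420.6 to 791 in the LM tumours, so for this gene it goes against the low-expression class of its model. Its log2 CPM values correlated with the other HR1 tumours at Pearson's r = 0.894 and 0.904 across genes, against 0.969 between those tumours and 0.990 or more within LM1 and within LM9. Counts of called genes are therefore given with and without it, as are the changes that depended on it most. Of the 6 listed epithelial markers, Epcam, Cdh1, Krt18 and Krt19 lay at 4.49 CPM or less in every tumour. The basal keratin Krt14 lay at 152 to 175 CPM in LM1, 12.2 to 15.4 CPM in LM9 and 1.56 to 109 CPM in HR1, and Krt5 reached 10.7 CPM in HR1 replicate 3.

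The effector genes were higher in LM1 than in HR1 tumours and higher again in LM9. Summed over the 57 genes, they took 0.251% to 0.329% of all counts in HR1 tumours, 0.672% to 0.711% in LM1 and 1.59% to 2.02% in LM9, and the ranges do not overlap. For LM1 and LM9 combined, 52 of the 57 were called higher than in HR1 by edgeR's quasi-likelihood test at a Benjamini-Hochberg adjusted p under 0.05, where 19.9% of all tested genes were called higher. Unless another tool or another set of tumours is named, a gene is said to be called, higher or lower by this test on all 9 tumours. None was called lower, where 23.6% of all tested genes were. The count of lower members was also 0 at an unadjusted p under 0.05 and 0 by DESeq2 and by limma-voom. The median log2 fold change was 2.08 for the 57 and −0.05 for all tested genes, and 50 of the 52 passed 2-fold. The 5 not called were Ifi47, Psme1, Psme2, Slfn5 and Ifi27.

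**Figure D1:**
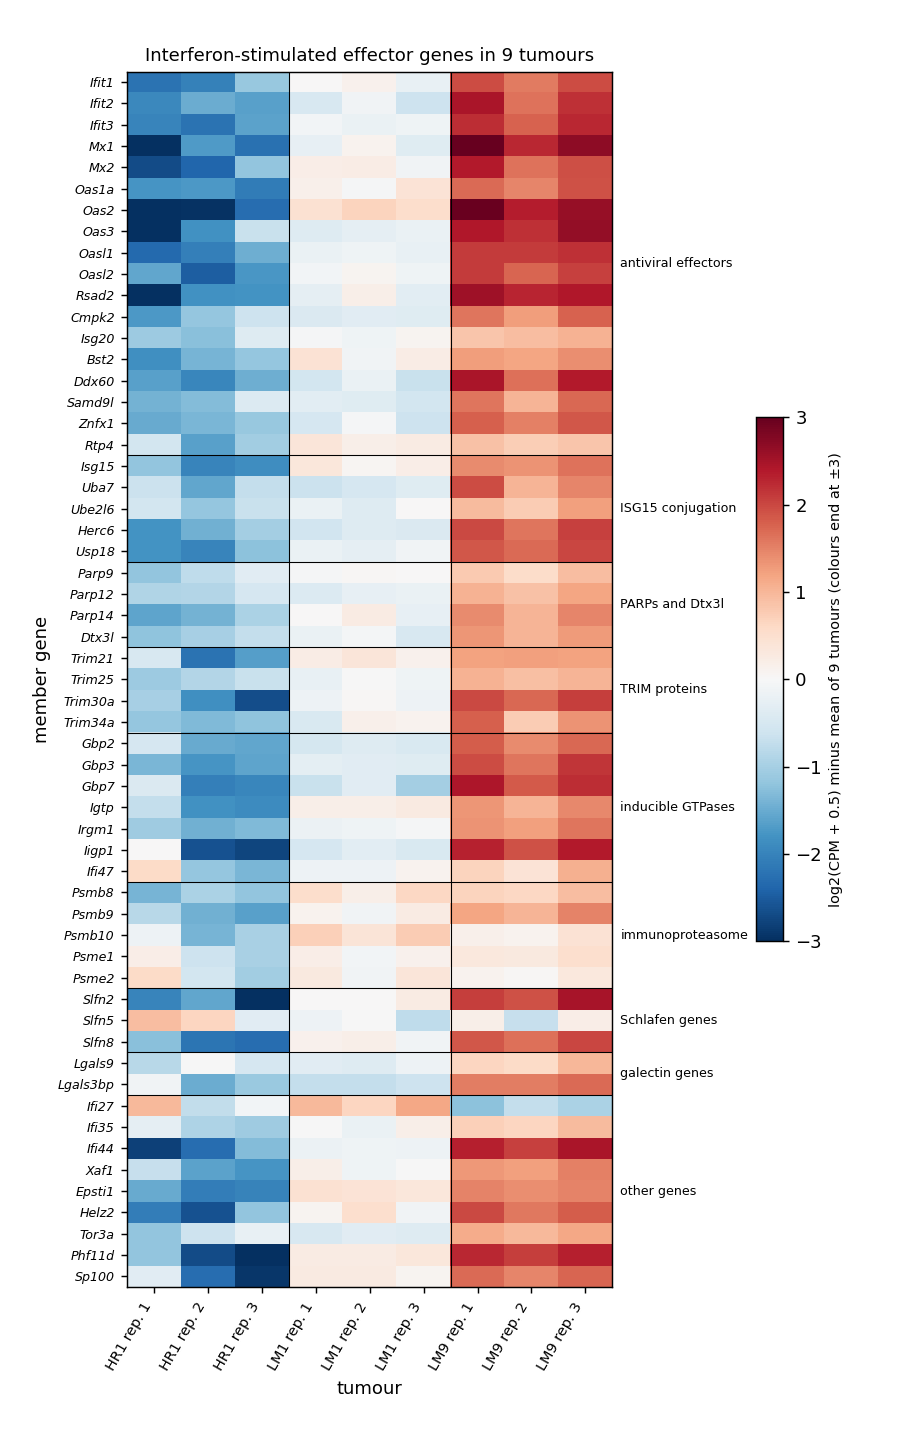
Heat map of the 57 effector genes (rows, by role) in the 9 tumours (columns), as log2(CPM + 0.5) minus each gene's mean over the tumours, with colours ending at ±3. Most genes run from blue in HR1 through pale in LM1 to red in LM9, and Ifi27, Slfn5 and Psme2 are among those that do not.

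In LM1 alone, 41 genes exceeded HR1 (16.7% of tested genes) and 0 were lower (18.7%), also at an unadjusted p under 0.05. The median change was 1.32 log2 units. In LM9 against HR1, 53 were higher (20.4%) and 1, Ifi27, was lower (21.9%), with a median of 2.79. These comparisons share the HR1 tumours. Compared directly, 47 were higher in LM9 than in LM1 (11.5%) and 1, again Ifi27, was lower (10.6%), with a median of 1.62. The median ratio of mean CPM was 2.49 for LM1 over HR1, 6.91 for LM9 over HR1 and 3.08 for LM9 over LM1.

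The 3 models were ordered tumour by tumour for most of the genes. In 44 of the 57 every LM1 tumour lay above every HR1 tumour and every LM9 tumour above every LM1 tumour, an order that 5.42% of tested genes showed. In 45 every LM tumour lay above every HR1 tumour (15.6%). In 53 every LM9 tumour lay above every LM1 tumour (31.9%), and in 1, Ifi27, every LM9 tumour lay below every LM1 tumour (31.1%).

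**Figure D2:**
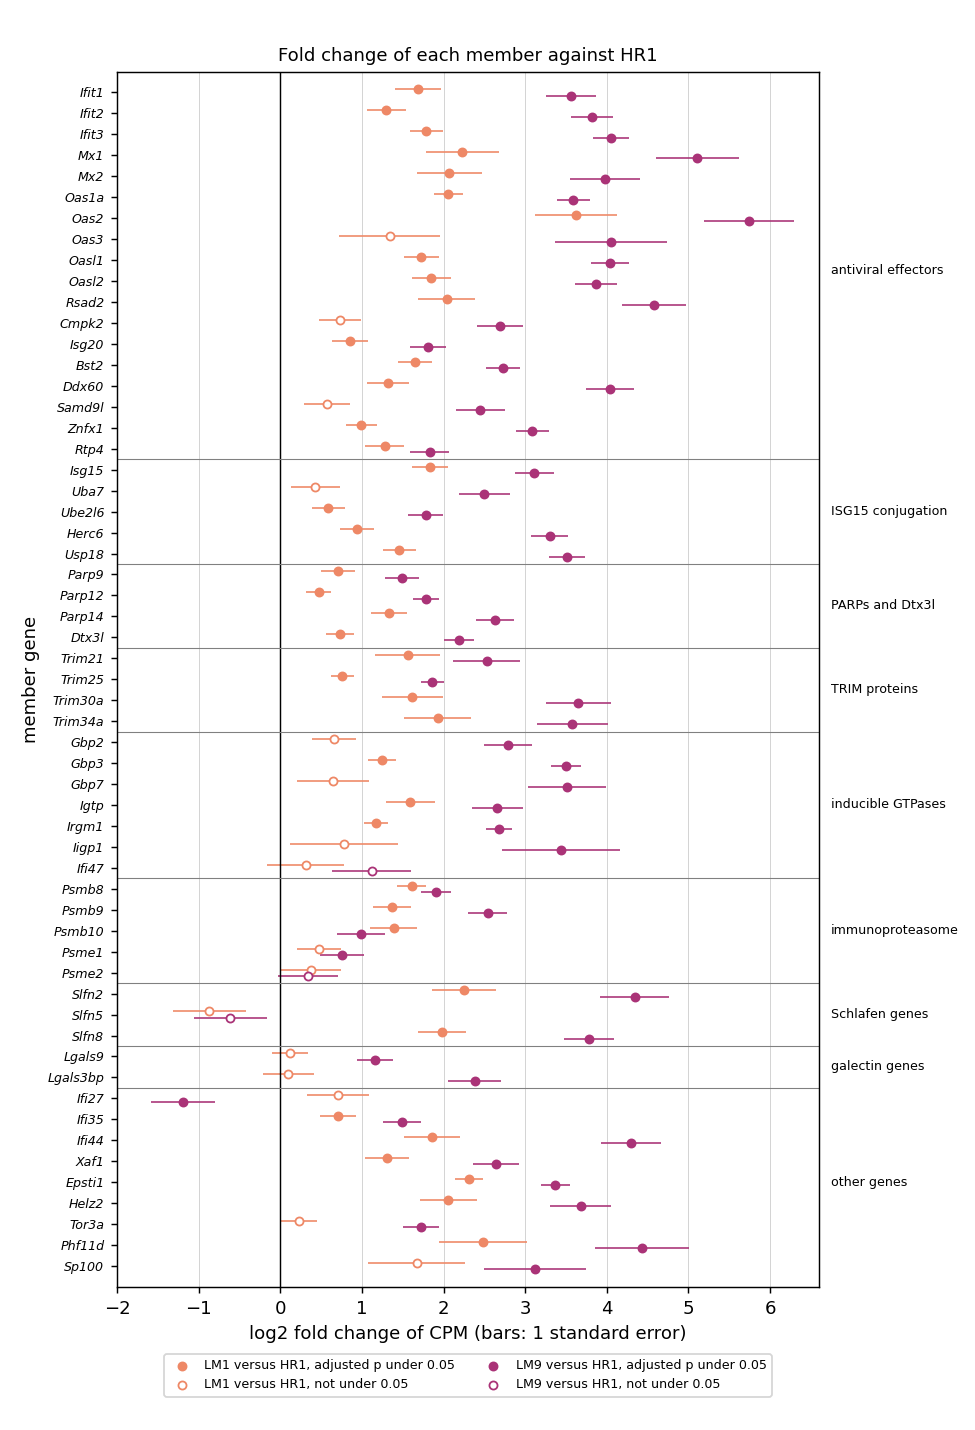
Log2 fold change of each effector gene in LM1 (orange) and LM9 (purple) against HR1, from edgeR, with bars of 1 standard error, and filled points where the adjusted p is under 0.05. The LM9 point lies to the right of the LM1 point for all but Psmb10, Psme2 and Ifi27, and 41 LM1 and 54 LM9 points are filled.

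All 18 antiviral effectors were higher in LM than in HR1 tumours (19.9% of all tested genes). In LM1 15 were higher than in HR1 (16.7%), and 17 were higher in LM9 than in LM1 (11.5%). The median log2 fold change was 1.67 for LM1 over HR1 and 3.85 for LM9 over HR1. Oas2, a 2′-5′ oligoadenylate synthetase that activates RNase L on double-stranded RNA, lies at chr5:120730333-120749853. Its level was 2.03, 6.19 and 10.2 CPM in the 3 HR1 tumours, 71.3, 82.2 and 73.9 CPM in LM1, and 403.9, 267 and 320.0 CPM in LM9. The 3 models were fully apart, and HR1 replicate 1 was the lowest of all. Its log2 fold change, the largest of the 57 against HR1, was 3.62 ± 0.50 (SE) in LM1 (adjusted p = 0.00112) and 5.74 ± 0.55 in LM9 (adjusted p = 0.000178). The difference of LM9 from LM1 was 2.12 ± 0.46 (adjusted p = 0.0144), and it lost its call without LM1 replicate 1, LM1 replicate 3 or LM9 replicate 1 (adjusted p = 0.0659, 0.0622 and 0.0571).

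Mx1 encodes a dynamin-like GTPase that traps viral nucleocapsids. It held 2.29, 9.61 and 6.43 CPM in HR1, 27.0, 34.8 and 24.8 in LM1, and 272, 156 and 209 in LM9. No HR1 value reached an LM1 value and no LM1 value reached an LM9 value. Mx1 rose by 2.23 ± 0.45 log2 units in LM1 (adjusted p = 0.00611) and 5.11 ± 0.51 in LM9 (adjusted p = 0.000217), and LM9 exceeded LM1 by 2.88 ± 0.46 (adjusted p = 0.00442), the largest such difference among the 57.

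Rsad2, known as viperin, makes a chain-terminating nucleotide that stops viral polymerases. In HR1 it lay at 9.38, 24.9 and 25.6 CPM, in LM1 at 73.5, 101 and 71.1, and in LM9 at 521, 438 and 473. The models did not overlap, with a log2 fold change of 2.04 ± 0.35 for LM1 (adjusted p = 0.00286) and 4.58 ± 0.39 for LM9 (adjusted p = 0.000105) against HR1. Its neighbour Cmpk2, a mitochondrial nucleotide kinase gene next to it on chromosome 12, was higher in LM9 by 2.69. Cmpk2 was not called in LM1 (0.73 ± 0.26, adjusted p = 0.0578). DESeq2, limma-voom and the replicate block called its LM1 change (adjusted p = 0.0321, 0.0472 and 0.0472), as did the fit without HR1 replicate 3 (1.06, adjusted p = 0.0079).

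Bst2, or tetherin, holds budding virus at the cell membrane and had the highest level per length of the antiviral members. It measured 149.9, 203 and 238 CPM in HR1, 719, 501 and 629 in LM1, and 1289, 1227 and 1411 in LM9. Again each model had its own range, and the log2 fold changes were 1.65 ± 0.21 (LM1, adjusted p = 0.000715) and 2.73 ± 0.21 (LM9, adjusted p = 7.46e-05). Ddx60, a helicase that acts with RNA sensors, was far less abundant, with 3.76, 2.86 and 4.25 CPM in HR1, 8.40, 10.9 and 7.80 in LM1, and 70.5, 40.4 and 67.3 in LM9. It had a log2 fold change of 1.32 ± 0.26 in LM1 (adjusted p = 0.00533) and of 4.04 ± 0.29 in LM9 (adjusted p = 4.13e-05).

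The IFIT genes, whose products bind viral RNA that lacks the host cap, lie side by side on chromosome 19. Ifit1, Ifit2 and Ifit3 were higher by 1.69, 1.30 and 1.79 log2 units in LM1 and by 3.56, 3.82 and 4.05 in LM9. Of the other synthetase genes, Oas1a, Oasl1 and Oasl2 rose by 2.06, 1.73 and 1.85 in LM1 and 3.59, 4.04 and 3.87 in LM9. Oas3 was not called in LM1 (1.34 ± 0.62, adjusted p = 0.122), with 3.99, 18.0 and 40.9 CPM in the HR1 tumours and 49.7 to 56.2 CPM in LM1, and rose in LM9 by 4.05 (3.57 without HR1 replicate 1 and 4.98 without HR1 replicate 3). Its LM1 change was called by limma-voom (1.79, adjusted p = 0.0406), without HR1 replicate 1 (0.86, adjusted p = 0.0351) and without HR1 replicate 3 (2.27, adjusted p = 0.0143). Samd9l, a restriction factor gene, rose in LM9 (2.45) and was not called in LM1 (0.57 ± 0.28, adjusted p = 0.149). HR1 replicate 3 at 70.5 CPM lay within its LM1 range of 64.6 to 75.7, and without that tumour the LM1 change was called (0.96, adjusted p = 0.0112). The exonuclease gene Isg20 and the chaperone gene Rtp4 had the smallest LM9 changes of the group, 1.81 and 1.83. Rtp4 was not called between LM9 and LM1 (0.55 ± 0.23, adjusted p = 0.122). That difference was called without HR1 replicate 1 or HR1 replicate 2 and in the fit of the 6 tumours compared (adjusted p = 0.0129, 0.0323 and 0.00069).

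Oas1a and Ifit3 cannot be fully separated from close copies. Of the 50-base windows of their exons, the length of a read, 57.6% of those of Oas1a also occur in Oas1g or Oas1b and 51.2% of those of Ifit3 in Ifit3b. In all, 9 of the 57 genes share more than 10% of their windows with another gene. Among these 9, Trim34a (39.8%) and Psme2 (28.3%) come next after Oas1a and Ifit3. The copies Oas1g and Ifit3b were themselves higher in LM than in HR1 tumours, by 3.18 and 2.70 log2 units.

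All 5 genes of ISG15 conjugation were higher in LM than in HR1 (19.9% of all tested genes). In LM1 against HR1 4 were higher (16.7%), and in LM9 against LM1 5 were (11.5%). Isg15 itself, the ubiquitin-like modifier, measured 275, 158.5 and 172 CPM in HR1, 790.2, 657 and 724 in LM1 and 1686, 1587 and 1948 in LM9. Per length, it had the highest level of the 57 genes in all models. The 3 ranges were separate and the log2 fold change was 1.84 ± 0.22 in LM1 (adjusted p = 0.000617) and 3.11 ± 0.24 in LM9 (adjusted p = 6.01e-05). Uba7, the activating enzyme, was not called in LM1 (0.43 ± 0.30, adjusted p = 0.287) and rose by 2.50 in LM9. The conjugating enzyme Ube2l6 rose by 0.59 in LM1, a call near the threshold (adjusted p = 0.0493) that is lost when any single tumour other than HR1 replicate 1 is left out, and by 1.78 in LM9. Herc6, the mouse ligase for ISG15, rose by 0.94 and 3.30, and Usp18, which removes ISG15 and restrains the interferon receptor, by 1.46 and 3.51.

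The mono-ADP-ribosyltransferase genes Parp9, Parp12 and Parp14 and the E3 ligase gene Dtx3l, the partner of Parp9, were all higher in LM1 and in LM9. Their median changes were 0.72 and 1.99 log2 units, and 16.7% and 20.4% of all tested genes were called higher. Parp12 held 56.5, 57.1 and 74.3 CPM in HR1, 79.7, 88.6 and 91.4 in LM1 and 217, 194 and 241 in LM9. The ranges did not overlap, but HR1 replicate 3 lay close to the lowest LM1 tumour. The LM1 change of 0.47 ± 0.15 (adjusted p = 0.0412) was not called in 7 of the 9 fits without 1 tumour (adjusted p up to 0.116). The LM1 call was also lost for Parp9 in the fit of the 6 tumours compared and without HR1 replicate 2 or any LM1 tumour (adjusted p = 0.0645 to 0.0826), and for Dtx3l without LM1 replicate 2 (adjusted p = 0.0511). The LM9 change of Parp12 was 1.79 ± 0.16 (adjusted p = 0.00011). Parp14, Dtx3l and Parp9 lie next to each other on chromosome 16 and rose by 2.63, 2.19 and 1.49 in LM9.

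All 4 TRIM genes were higher in LM1 (16.7% of all tested genes) and in LM9 (20.4%). Trim25, the ubiquitin ligase that acts on the RNA sensor RIG-I, measured 54.4, 62.9 and 72.8 CPM in HR1, 99.7, 115 and 106 in LM1, and 239.9, 216 and 233 in LM9. Its values were tight within each model, with log2 fold changes of 0.76 ± 0.14 (LM1, adjusted p = 0.00396) and 1.86 ± 0.14 (LM9, adjusted p = 6.65e-05). The cytosolic antibody receptor gene Trim21 rose by 1.56 in LM1 and 2.53 in LM9, or by 2.26 and 3.23 without HR1 replicate 1. Its LM1 call was lost in the fit of the 6 tumours compared and without LM1 replicate 2 (adjusted p = 0.0584 and 0.054). LM9 was not called above LM1 (0.97 ± 0.39, adjusted p = 0.104), but was without HR1 replicate 1 or HR1 replicate 2 and in the fit of the 6 tumours compared (adjusted p = 0.000966, 0.0382 and 2.88e-05). Trim30a rose by 1.62 and 3.65. Trim34a, at 0.360 to 0.466 CPM in HR1 and 3.16 to 7.02 CPM in LM9, rose by 1.93 and 3.58.

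The 7 interferon-inducible GTPases attack the membranes around intracellular parasites and bacteria. Of these, 6 were higher in LM than in HR1 (19.9% of all tested genes), but only 3 were called higher in LM1 (16.7%). Gbp3 measured 58.7, 44.0 and 50.5 CPM in HR1, 125, 121 and 119 in LM1 and 597, 468 and 671 in LM9. Its ranges were apart, and it rose by 1.25 ± 0.17 in LM1 (adjusted p = 0.00103) and 3.50 ± 0.18 in LM9 (adjusted p = 1.23e-05). Its neighbours on chromosome 3 are Gbp7 and Gbp2.

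Gbp7 lay at 22.2, 6.82 and 7.36 CPM in HR1, 18.8, 23.6 and 14.5 in LM1 and 164, 108 and 141 in LM9. The tumour labelled HR1 replicate 1 lay within the LM1 range, whereas LM9 was apart from both. The change was 0.65 ± 0.44 in LM1 (adjusted p = 0.281), 3.51 ± 0.48 in LM9 (adjusted p = 0.000908), and 2.86 ± 0.46 for LM9 over LM1 (adjusted p = 0.00487). Without HR1 replicate 1 the LM1 change became 1.42 (adjusted p = 0.000845) and the LM9 change 4.28 (adjusted p = 2.2e-06), beside 1.37 and 3.62 for Gbp3.

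Iigp1 and Ifi47 also had their highest HR1 value in HR1 replicate 1 by a wide margin, whereas for Gbp3 and Irgm1 the log2 ratio of this tumour to the mean of the other HR1 tumours was 0.31 and 0.30. Iigp1 was at 51.1 CPM in HR1 replicate 1 and 7.97 and 7.18 in the others, against 35.8 to 40.8 in LM1 and 192 to 269 in LM9. Its LM1 change was 0.78 ± 0.66 (adjusted p = 0.386) and, without that tumour, 2.33 ± 0.17 (adjusted p = 8.07e-06), and its LM9 change went from 3.44 to 4.98. Its call in LM against HR1 (2.11 ± 0.63, adjusted p = 0.0258) was lost without HR1 replicate 2, HR1 replicate 3 or LM1 replicate 2 (adjusted p = 0.0641, 0.0532 and 0.0507). Ifi47 held 64.7 CPM in HR1 replicate 1, 19.1 and 16.5 in the other HR1 tumours, 38.7 to 46.5 in LM1 and 57.5 to 90.9 in LM9, and was not called in any comparison. DESeq2 and limma-voom called it in LM9 against HR1 (adjusted p = 0.0481 and 0.0248), limma-voom in LM against HR1 (adjusted p = 0.0492), and the fit of the 6 tumours in LM9 against LM1 (adjusted p = 0.00134). Without HR1 replicate 1 it was higher in LM by 1.62 ± 0.19 (adjusted p = 8.78e-05) and in LM9 than in LM1 by 0.81 (adjusted p = 0.00422). Gbp2 was at 0.66 ± 0.27 in LM1 (adjusted p = 0.0899), or 1.10 without HR1 replicate 1 (adjusted p = 0.000206) and 0.77 by limma-voom (adjusted p = 0.0459), and rose by 2.79 in LM9. Igtp and Irgm1 rose in LM1 by 1.59 and 1.17 and in LM9 by 2.66 and 2.68.

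Immunoproteasome genes were mostly raised already in LM1. Psmb8, Psmb9 and Psmb10, the 3 catalytic subunits, were higher in LM1 by 1.61, 1.37 and 1.39, and Psmb9 was also higher in LM9 than in LM1 (1.17 ± 0.23, adjusted p = 0.00942). The other 4 genes of the group were not called between LM9 and LM1, though in the fit of the 6 tumours compared Psme1 was higher (0.28, adjusted p = 0.0451) and Psmb10 lower (−0.41, adjusted p = 0.0188). Psmb8 measured 118, 161 and 136.5 CPM in HR1, 448, 349.5 and 475 in LM1 and 493, 480.3 and 586.5 in LM9. Every LM tumour exceeded every HR1 tumour, and the lowest LM9 value lay just above the highest LM1 value. Its change was 1.61 ± 0.18 in LM1 (adjusted p = 0.000425) and 1.91 ± 0.18 in LM9 (adjusted p = 0.000169), and the 2 LM models were not told apart (0.29 ± 0.18, adjusted p = 0.256). Psmb10 had its highest values in LM1, 150.6 to 196 CPM, against 123.5 to 155 in LM9 and 43.4 to 103 in HR1.

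The subunits of the proteasome activator PA28, Psme1 and Psme2, lie next to each other on chromosome 14. Psme1 was called in LM9 against HR1 (0.76 ± 0.27, adjusted p = 0.0474), a call lost under every exclusion of 1 tumour except that of HR1 replicate 1. In LM against HR1 it was not called (0.62 ± 0.24, adjusted p = 0.0632), whereas DESeq2 and limma-voom called it (adjusted p = 0.0419 and 0.032). Psme2 was called in no comparison, with 54.6, 24.6 and 17.4 CPM in HR1, 33.9 to 47.1 in LM1 and 37.5 to 45.6 in LM9. For both genes HR1 replicate 1 was the highest HR1 tumour, and without it both were higher in LM (1.03 and 0.98, adjusted p = 0.000193 and 0.00144).

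The 3 Schlafen genes lie within 1 stretch of chromosome 11, chr11:82951349-83070678, and did not move together. Slfn2, known for keeping resting T cells quiescent, rose from 9.74, 13.3 and 3.94 CPM in HR1 to 40.6, 40.5 and 47.6 in LM1 and 169.6, 151.5 and 226 in LM9. The models were fully apart, with log2 fold changes of 2.25 ± 0.39 (LM1, adjusted p = 0.00287) and 4.34 ± 0.42 (LM9, adjusted p = 0.000188). Slfn8 rose by 1.98 and 3.78. Slfn5 held 7.75, 6.28 and 2.96 CPM in HR1, 3.42, 3.80 and 2.08 in LM1 and 4.44, 2.17 and 4.52 in LM9. The groups overlapped, and the change in LM was −0.74 ± 0.38 (adjusted p = 0.144), which passed the threshold only without HR1 replicate 3 (−1.04, adjusted p = 0.0408).

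Galectin 9 and the galectin-3 binding protein were higher in LM9, and neither was called in LM1. Lgals3bp, a secreted glycoprotein that binds galectin 3, measured 476, 181 and 236 CPM in HR1, 314, 313 and 331 in LM1 and 1485, 1477 and 1668 in LM9. The LM1 values fell inside the HR1 range and the LM9 values lay above all others. The change was 0.10 ± 0.31 in LM1 (adjusted p = 0.817) and 2.38 ± 0.32 in LM9 (adjusted p = 0.000879), and LM9 exceeded LM1 by 2.27 ± 0.32 (adjusted p = 0.00282). The LM1 change was 0.62 without HR1 replicate 1 (adjusted p = 0.0043). Lgals9 rose by 1.16 in LM9 and was at 0.12 ± 0.22 in LM1 (adjusted p = 0.707).

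Of the 9 other interferon-induced genes 8 were higher in LM (19.9% of all tested genes). Ifi44 was at 20.6, 29.6 and 58.8 CPM in HR1, at 129.8, 133 and 132 in LM1 and at 742, 612 and 799.9 in LM9. The LM1 tumours were nearly equal to each other, while HR1 replicate 3 lay well above the other HR1 tumours. Its changes were 1.86 ± 0.34 (LM1, adjusted p = 0.00374) and 4.30 ± 0.37 (LM9, adjusted p = 0.00011). Epsti1 held 11.6, 7.63 and 8.08 CPM in HR1, 47.0, 45.1 and 42.9 in LM1 and 96.2, 89.4 and 96.0 in LM9. The models were apart, with a change of 2.31 ± 0.17 in LM1 (adjusted p = 0.000108) and 3.37 ± 0.18 in LM9 (adjusted p = 1.35e-05).

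Phf11d, a gene with a PHD zinc finger domain, measured 33.0, 11.4 and 5.63 CPM in HR1, 90.2, 90.9 and 96.7 in LM1 and 367, 322 and 384 in LM9. LM values were separate from HR1 and from each other, with changes of 2.48 ± 0.54 (LM1, adjusted p = 0.00821) and 4.43 ± 0.58 (LM9, adjusted p = 0.000807), or 3.45 and 5.39 without HR1 replicate 1. The excess of LM9 over LM1 (1.95 ± 0.52, adjusted p = 0.0305) was not called in any fit that left out 1 LM tumour. The helicase-like coactivator gene Helz2 rose by 2.06 and 3.68, and Xaf1, an antagonist of the apoptosis inhibitor XIAP, by 1.31 and 2.64. Sp100, a component of PML nuclear bodies, rose by 3.12 in LM9 and was not called in LM1 (1.67 ± 0.59, adjusted p = 0.0554). Its LM1 change was called by DESeq2, by limma-voom, with library size only and with the replicate block (adjusted p = 0.0113, 0.00696, 0.0376 and 0.038). Without HR1 replicate 1 the Sp100 changes were 2.90 in LM1 (adjusted p = 7.56e-06) and 4.35 in LM9 (adjusted p = 8.49e-07). LM9 was not called above LM1 (1.45 ± 0.58, adjusted p = 0.105). That difference was called without HR1 replicate 1 or HR1 replicate 3, by DESeq2 and in the fit of the 6 tumours compared (adjusted p = 0.000179, 0.0391, 0.0382 and 2.22e-06).

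Ifi27, which encodes a small mitochondrial membrane protein, went the other way in LM9. It measured 478, 146 and 228 CPM in HR1, 477, 377 and 544 in LM1 and 102, 147 and 124.5 in LM9. Every LM9 tumour lay below every LM1 tumour, the HR1 tumours spanned both, and HR1 replicate 1 lay among the LM1 values. The change was 0.71 ± 0.38 in LM1 (adjusted p = 0.178), −1.19 ± 0.39 in LM9 (adjusted p = 0.0364) and −1.90 ± 0.40 for LM9 against LM1 (adjusted p = 0.0123). Without HR1 replicate 1 the change was 1.32 in LM1 (adjusted p = 0.00141, now called) and −0.59 in LM9 (adjusted p = 0.0499). Its lower level in LM9 than in HR1 was not called by limma-voom (adjusted p = 0.0518), in a fit of the 6 tumours compared (adjusted p = 0.0807) or in any fit that left out 1 LM tumour. The difference from LM1 lost its call without LM9 replicate 1 or LM9 replicate 3 (adjusted p = 0.0599 and 0.0504).

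**Figure D3:**
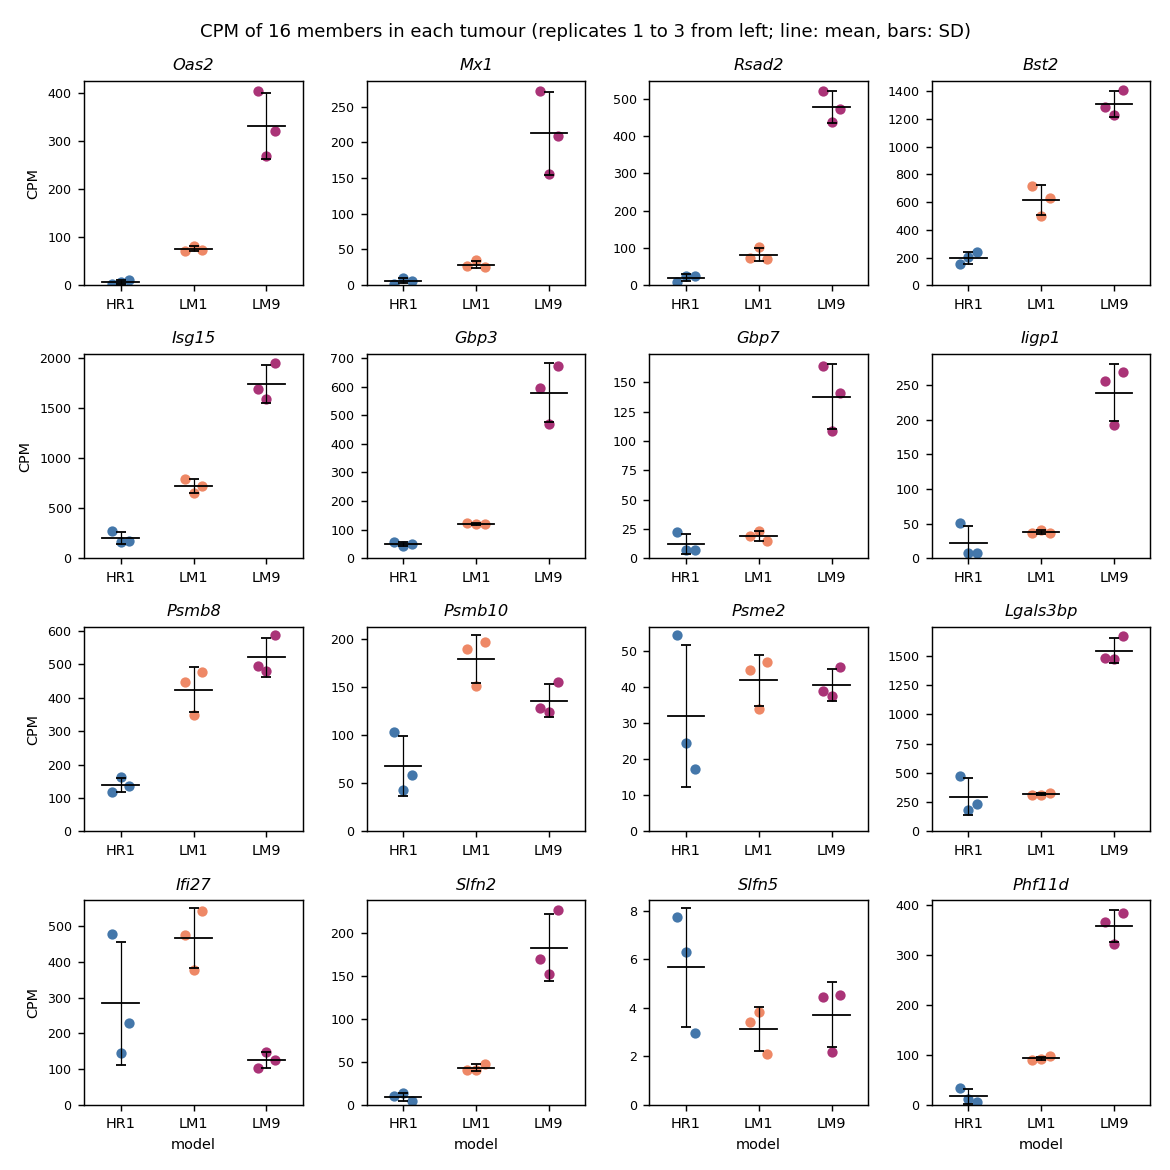
CPM of 16 effector genes in each tumour, with the mean (line) and SD (bars, cut at 0) of 3 tumours per model and replicates 1 to 3 from left to right. Oas2, Mx1, Rsad2, Bst2, Isg15 and Gbp3 rise from HR1 to LM1 to LM9 without overlap, Psmb8 and Psmb10 rise mainly between HR1 and LM1, Lgals3bp and Gbp7 are highest in LM9, and Ifi27 is lowest in LM9.

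The effector genes varied more among HR1 tumours than within either LM model. The median coefficient of variation over the 57 was 36.4% in HR1, 9.18% in LM1 and 13.4% in LM9, and the highest was 114% for Iigp1 in HR1. The same coefficient is not given for all tested genes. Across all genes, every pair of HR1 tumours also correlated less than any pair within LM1 or within LM9. The wider spread in HR1 was therefore not shown to be particular to the effector genes. The tumour labelled HR1 replicate 1 was the highest HR1 tumour for 28 of the genes and the lowest for 22, and this differed by role group. The same counts were not made over all tested genes, and the difference between role groups was not tested. It was the highest for 7 of 7 inducible GTPases, with a median log2 ratio to the mean of the other HR1 tumours of 1.14, and for 4 of 5 immunoproteasome genes (0.99). It was the lowest for 12 of 18 antiviral effectors (−0.59) and for 4 of 4 PARP and Dtx3l genes (−0.40). Even so, it lay below every LM tumour for 48 of the 57 genes (35.0% of tested genes), against 54 (31.1%) and 53 (30.7%) for HR1 replicates 2 and 3.

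**Figure D4:**
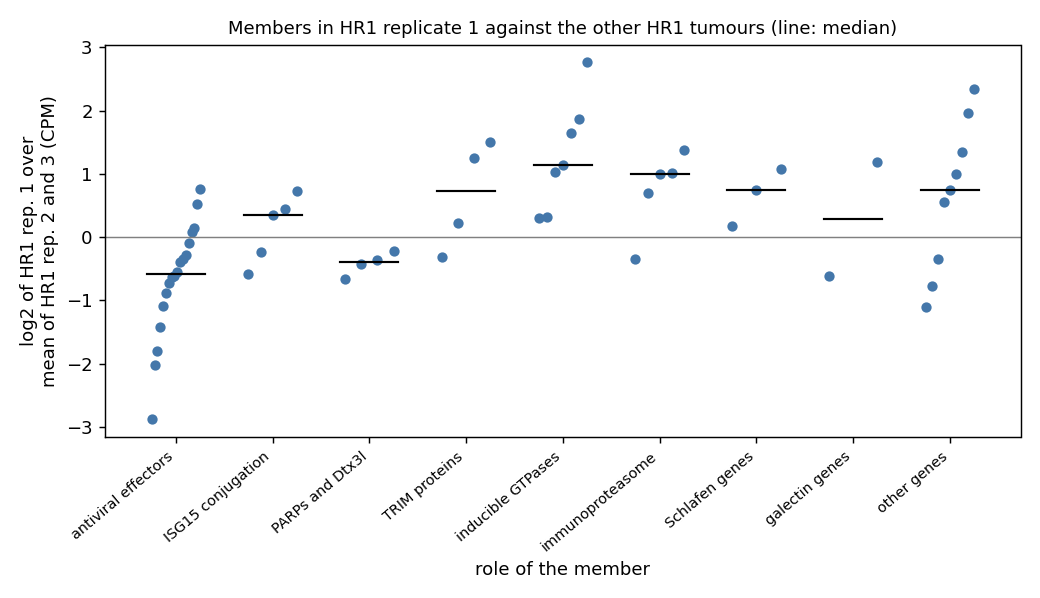
Log2 ratio of CPM in HR1 replicate 1 to the mean of HR1 replicates 2 and 3 for each effector gene, by role, with the median as a line. All 7 inducible GTPases lie above 0 and all 4 PARP and Dtx3l genes lie below it, while the antiviral effectors run from −2.88 to 0.76.

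Without HR1 replicate 1, the counts of higher genes were 55 in LM against HR1 (27.5% of all tested genes), 51 in LM1 (26.9%), 55 in LM9 (27.9%) and 51 in LM9 against LM1 (22.9%). The share of all genes called thus rose as well in each comparison. The fold change against HR1 moved by more than 1.5 times, upwards, for 8 of the 57: Gbp7, Ifi27, Ifi47, Iigp1, Phf11d, Psme2, Sp100 and Trim21. The gains in LM1 were Oas3, Gbp2, Gbp7, Iigp1, Ifi47, Psme1, Psme2, Lgals3bp, Ifi27 and Sp100. The largest count of calls lost by leaving out 1 tumour was in LM9 against LM1, from 47 to 35 without LM1 replicate 1, where the share of all tested genes called higher went from 11.5% to 4.34%.

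Of the 20 genes for interferon receptors, JAK kinases, STAT factors, IRF factors and inhibitors of the pathway, 8 were higher and 6 lower in LM against HR1, against 19.9% and 23.6% of all tested genes, and the median change was 0.15 log2 units. The receptor genes did not rise: Ifnar1, a chain of the type I receptor, fell by 0.87 (adjusted p = 0.00154), and Ifnlr1, a chain of the interferon lambda receptor, by 4.71 at no more than 3.08 CPM in any tumour. The factor genes Stat2 and Irf9 rose. Stat2 was at 21.9 to 32.6 CPM in HR1, 49.2 to 68.4 in LM1 and 169 to 272 in LM9, and Irf9 at 26.5 to 54.2, 83.9 to 92.9 and 158 to 189. Irf7, the factor that amplifies interferon transcription, had 112.5 to 206 CPM in HR1, 469 to 595 in LM1 and 1825 to 2191 in LM9, a change of 2.71 ± 0.22 in LM (adjusted p = 7.33e-05). Irf1, a factor induced by interferon gamma, rose by 1.32 ± 0.14 (adjusted p = 0.000259). For Stat2, Irf7, Irf9 and Irf1 the ranges of the 3 models do not overlap, and each of these 4 factors was also higher in LM9 than in LM1.

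Of 6 interferon genes looked up (Ifnb1, Ifng, Ifnl2, Ifnl3, Ifnk and Ifne), only Ifnb1, the gene of interferon beta, was among the listed genes. Interferon alpha genes were not looked up. It measured 0.0665, 0.270 and 0.180 CPM in HR1, 2.39, 1.72 and 1.68 in LM1 and 21.2, 6.98 and 15.9 in LM9. The 3 models were apart. The log2 fold change was 3.42 ± 0.55 in LM1 (adjusted p = 0.0022) and 6.35 ± 0.61 in LM9 (adjusted p = 0.000174). LM9 exceeded LM1 by 2.93 ± 0.50 (adjusted p = 0.00566). The HR1 levels are near the floor, so the changes against HR1 rest on few reads. A listed gene needed 7 or more counts in at least 3 tumours, which the LM tumours alone could give.

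Of 9 listed sensors of foreign nucleic acid and their adaptors, 7 were higher in LM (19.9% of all tested genes) and 2 were not called, with the largest changes in Zbp1 (3.31 ± 0.20), a sensor of Z-form nucleic acid, and Dhx58 (3.11 ± 0.22), which encodes LGP2. Of 39 further interferon-induced genes, 1 of which is also among the 20 genes above, 32 were higher and 1 lower in LM (19.9% and 23.6% of all tested genes), 21 and 1 in LM1 (16.7% and 18.7%), and 36 and 1 in LM9 (20.4% and 21.9%). The largest changes in LM were those of Slfn4 (3.47 ± 0.68) and Oas1g (3.18 ± 0.28), and the gene that fell was Ifitm1, which restricts virus entry, at 2.16 to 29.5 CPM in HR1 and 0.0458 to 0.441 CPM in LM (−5.64 ± 0.78, adjusted p = 0.000779).

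Markers of other cell types moved between the models as well. Of 24 leukocyte markers 20 were among the listed genes, and in LM against HR1 13 were lower (23.6% of all tested genes) and 7 were not called, with C1qc (−3.05) and C1qa (−2.85) changed most. Their summed level was 1054, 1546 and 357 CPM in the HR1 tumours, 334 to 373 in LM1 and 263 to 352 in LM9, while the effector genes summed to 3547, 2510 and 2993 CPM in HR1, 6393 to 6861 in LM1 and 16410 to 20340 in LM9. Between models the leukocyte sum was highest in HR1 and the effector sum in LM9, while within LM9 both sums had the same order of tumours. HR1 replicate 3, with a leukocyte sum in the LM1 range, had 2993 CPM of effector genes. The part of leukocytes in the result was not tested. In LM9 against LM1, Cd68 was the 1 leukocyte marker called higher (11.5% of all tested genes) and 3 were lower (10.6%). The general leukocyte marker Ptprc lay between 2.29 and 11.3 CPM, and no listed marker was at 0 in all tumours. In sorted bulk samples, fewer cells of a type and less RNA per cell cannot be told apart.

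Of 10 fibroblast markers 9 were lower in LM than in HR1 (again 23.6% of all tested genes), with sums of 23420 to 35250 CPM in HR1, 10400 to 13830 in LM1 and 8976 to 10550 in LM9. The endothelial markers (9 of 10 listed) summed to 11.6 to 39.9 CPM in HR1, 167 to 230 in LM1 and 261 to 298 in LM9. Of these only Cdh5 and Kdr were higher in LM (19.9% of all tested genes), while 6, Pecam1 among them, were lower (23.6%). The endothelial sums in LM were mostly Cdh5 (means of 158 CPM in LM1 and 238 in LM9) and Kdr (27.1 and 32.1), and of the other 7 markers 6 were lower in LM than in HR1 and 1 was not called. The fibroblast sums run in the opposite order of models to the effector sums. The part of these cell types in the result was not tested. Among 6 listed epithelial markers 2 were lower in LM (23.6% of all tested genes) and 4 were not called.

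**Figure D5:**
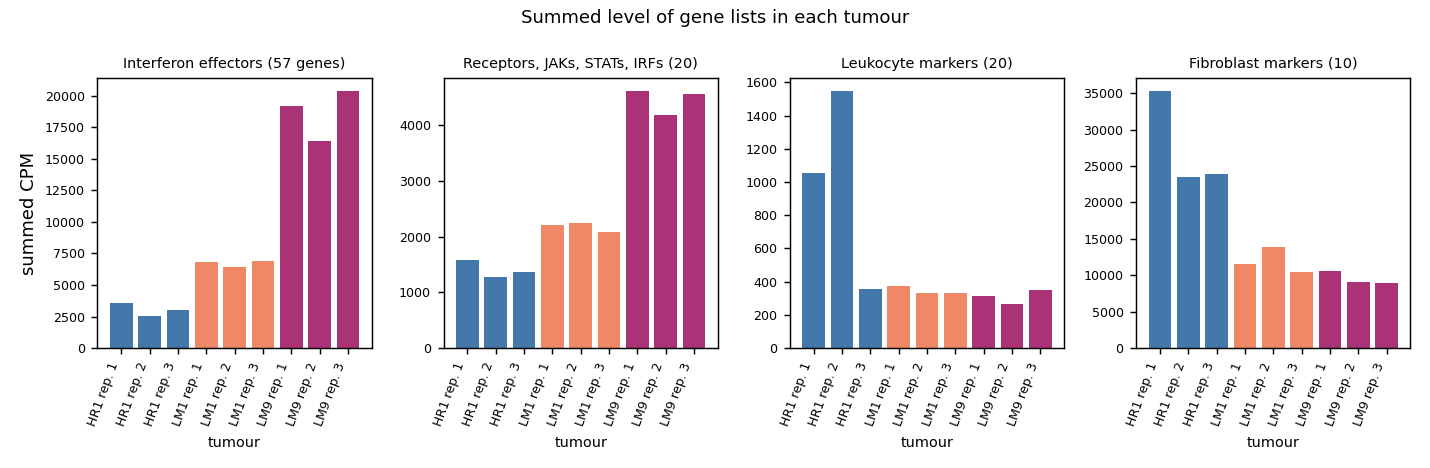
Summed CPM per tumour of the 57 effector genes, of 20 genes of interferon signalling, of 20 leukocyte markers and of 10 fibroblast markers, with HR1 in blue, LM1 in orange and LM9 in purple. The effector and signalling sums are highest in LM9 and the fibroblast sums in HR1. The leukocyte sums are highest in HR1 replicates 1 and 2, while HR1 replicate 3 lies among the LM tumours.

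Levels between genes were compared per length, as CPM divided by the kilobases of the annotated exon union. On this scale Isg15 was first in all 3 models, with a mean of 267 in the HR1, 957 in the LM1 and 2302 in the LM9 tumours, and Bst2 was second with 218, 683 and 1450. Ifi27 came next in HR1 and LM1 (194 and 317.5), whereas in LM9 it lay below Lgals3bp (84.9 against 542). At the other end, Slfn5 was lowest in LM1 and LM9 (0.491 and 0.587) and Trim34a in HR1 (0.162). In position, the 57 genes lie on 16 chromosomes, and 24 of them form 10 clusters with gaps of at most 100 kb.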

How the data were processed

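RNA was taken from sorted GFP-positive cells of 9 tumours, 3 each of HR1, LM1 and LM9, with groups and replicate numbers from the sample labels. The authors sequenced single-end 50-nt reads from stranded mRNA libraries, used STAR and the mm10 genome for alignment, and took gene counts with qCount of QuasR from read 5′ ends over the union of each gene's exons. The deposited values are raw counts per gene by Entrez number, with no normalization. The strand setting of the counting is not given in the sources used here. The files hold a filtered set of genes: each had 7 or more counts in at least 3 tumours. Symbols came from RefSeq (GRCm38.p6, the mm10 build; 14085 of 14108 matched), and positions and exon lengths from GENCODE of the same build.

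Counts were scaled by TMM (factors 0.928 to 1.05) and filtered by expression, which left out 22 genes. A robust quasi-likelihood model in edgeR 4.0.16 (R 4.3.3) was fitted to all 9 tumours with the model as the only factor. The average of LM1 and LM9 against HR1, LM1 and LM9 each against HR1, and LM9 against LM1 were compared, with Benjamini-Hochberg adjustment over 14086 genes and a threshold of 0.05. Fold changes are on the log2 scale with standard errors, and CPM use TMM-scaled library totals. Tables and figures were made with pandas 2.3.3, numpy 2.4.6 and matplotlib 3.10.9 in Python 3.11.15.

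Alternatives were other size factors (RLE, library size only), other filters (none, at least 1 CPM in 3 tumours), DESeq2 1.42.0, limma-voom (limma 3.58.1), no robust fitting, only the 6 tumours compared, the replicate number as a block, a 2-fold minimum, and each tumour left out in turn. Values in every tumour are given for the gene of each role with the highest mean CPM and for the 3 called genes with the largest changes in each direction of each comparison, and others were named beyond this after their values were seen. The members, the companion lists and the marker lists were chosen with earlier results of these data known. No pair of tumours within a model agreed within sampling noise. Iigp1, Mx1, Mx2, Oas2, Ifi27, Parp9, Parp14, Rtp4, Tor3a and Usp18 had no promoter entry. A gene of the companion lists is counted but not reported here by name.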

Additional observations from a re-analysis of the deposited data

Results flagged for a closer look

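Ifi27 stood out because its changes against HR1 had opposite signs in the LM models: its log2 fold change was 0.71 in LM1 and −1.19 in LM9. The test of the difference itself, LM9 against LM1, gave −1.90 ± 0.40 (edgeR's quasi-likelihood test, Benjamini-Hochberg adjusted p = 0.0123), and LM9 lay below LM1 in 3 of 3 tumours. By the same test 47 other members differed between the LM models with LM9 the higher. Outlying tumours were not looked for by a formal rule, since groups of 3 are too small for it.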

How the results depend on the processing

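The count of higher genes with each tumour left out in turn ranged from 50 to 55 in LM against HR1 (lower 0 to 1), from 35 to 51 in LM1 against HR1 (lower 0 to 0), from 51 to 55 in LM9 against HR1 (lower 0 to 1) and from 35 to 51 in LM9 against LM1 (lower 0 to 1). The share of all tested genes called higher in these fits ranged from 16.0% to 27.5%, 11.2% to 26.9%, 13.8% to 27.9% and 4.34% to 22.9%. The lower call of Ifi27 in LM9 against HR1 was absent, so that 0 genes were lower, by limma-voom, in the fit of the 6 tumours and with the replicate block, and in the fit of the 6 tumours 2 were lower in LM9 against LM1, the second being Psmb10 (−0.41, adjusted p = 0.0188). The 1 lower gene in LM against HR1 without HR1 replicate 3 was Slfn5. Of the called genes, 50 of 52, 34 of 41, 51 of 54 and 35 of 48 were called under every alternative other than the 2-fold minimum, with no called change reversed. With the 2-fold minimum 50, 32, 51 and 44 were higher, where 11.1%, 10.1%, 13.1% and 6.31% of all tested genes were.

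Uncalled changes near 0 turned sign with a tumour left out. Over such exclusions the log2 fold change of Ifi27 in LM against HR1 ranged from −0.55 to 0.37, that of Ifi47 in LM1 from −0.02 to 1.22, that of Lgals9 in LM1 from −0.05 to 0.37, that of Lgals3bp in LM1 from −0.15 to 0.62 and that of Psme2 in LM9 against LM1 from −0.17 to 0.05; the cause was not tested. Same-numbered tumours share only a number: their deviations from the model means correlated at −0.114 to 0.296. With the replicate block 52, 43, 53 and 45 genes were higher and 0, 0, 0 and 1 lower in the 4 comparisons. Of all tested genes 18.3%, 15.1%, 18.7% and 8.83% were higher with the block, and 18.9%, 14.8%, 17.3% and 7.46% lower. Counts of reads limited few values of the 57 members, since the lowest member count was 14.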
